A study of Rattus norvegicus with 36 samples.

Results

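The kidneys of volume depleted rats were compared with those of untreated rats, as gene expression measured on CodeLink arrays (1-colour oligonucleotide arrays read with biotin label). The comparison took its members by label: volume depleted rats 1 to 4 and normal rats 1 to 3, that is 7 of the 31 rats and 9 of the 36 arrays of the series, since volume depleted rat 1 and normal rat 2 each had 2 arrays, which were averaged. All were male rats aged 6 to 8 weeks. Volume depletion was produced by 20 mg/kg furosemide, a loop diuretic, given into the peritoneal cavity at 0 and 8 h, together with a diet lacking sodium, and kidneys were taken at 24 h. Normal rats received no treatment, and per the labels volume depletion served as a control for acute renal failure, thought to resemble normal kidney. RNA came from a piece of each kidney, so all cell types of the organ are mixed in each value. In such bulk tissue fewer cells of a type and less RNA per cell cannot be told apart.

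Groups used for reference were normal rats 11 and 12, also untreated, and 3 rats whose kidneys were taken 8 h after sham surgery of 40 min. Bilateral ischemia of 40 min was followed by reperfusion for 2 h in 4 rats and for 8 h in 3 rats. The study used arrays of 2 lots, and the lot of each array is not in the labels, so normal rats 11 and 12 were kept as a group of their own. Each level below is the log2 of a probe's intensity over the median of its array, with a floor of 0.1 of that median, and each change is a difference of such log2 levels. A probe is said to have risen or fallen only where limma's test over all 9466 probes gave a Benjamini-Hochberg adjusted p under 0.05.

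Furosemide blocks the sodium, potassium and chloride cotransporter of the thick ascending limb, so salt and water are lost in the urine. The kidney answers loss of volume through renin and angiotensin II, through aldosterone, which raises sodium reabsorption in the distal nephron, and through vasopressin, which raises water reabsorption in the collecting duct. Many kidney transport genes also follow the circadian clock, in which Clock and Bmal1 proteins bind E-boxes (CACGTG) to drive Per, Nr1d and Dbp genes, while the Nr1d proteins repress Bmal1 through elements built on AGGTCA.

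The tissue label held against its markers. All 21 measured proximal tubule markers and all 13 markers of the later nephron, from the loop of Henle to the collecting duct, lay above the floor in all 7 rats. No probe for a marker of the renin-secreting juxtaglomerular cell was named, and renin was not analysed here. Per array, 70 to 103 probes were missing and 6.82% to 12.9% lay at the floor. Normal rat 1 and volume depleted rat 1 (array 1) stood apart from the others: their median correlations with arrays of their own group were 0.976 and 0.966, against 0.983 or more for the rest. Array 1 of volume depleted rat 1 correlated at 0.984 with normal rat 1 and at 0.979 with the second array of its own rat. Results are given with and without them where leaving them out ended a call.

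Volume depletion changed few probes. Of 9466 probes 16 passed the test (0.169%), 7 higher (0.0739%) and 9 lower (0.0951%), and 565 (5.97%) had an unadjusted p under 0.05. The 11 called genes with a name fell into 4 that rose (Glycam1, Dbp, Lcn2 and Rasl10a) and 7 that fell (Bmal1, Fndc1, Dusp7, Tnc, Gatm, Vstm4 and Cnot2), while 5 called probes carried no gene name. The groups did not overlap for any of the 16, as for 564 of all probes (5.96%). The clock genes Dbp and Bmal1, the injury marker Lcn2, the matrix gene Tnc and the phosphatase Dusp7 passed whichever 1 of the 7 rats was left out of the fit of all groups. In a fit of the 2 groups alone, with fewer rats to estimate the spread, only Dbp of the 16 probes passed (adjusted p = 0.0136), and Bmal1 (0.185), Lcn2 (0.168), Tnc (0.168) and Dusp7 (0.133) did not. Leaving out normal rat 1 left 7 calls, normal rat 2 or volume depleted rat 3 left 8, and normal rat 3 gave 10, and against all 5 normal rats 41 probes passed, 14 of them among the 16. Without normal rat 1 and array 1 of volume depleted rat 1, 9 probes passed, and with the rat's number as a block in a fit of rats 1 to 3 of both groups 6 passed, of which 3 were among the 16. Of the named genes Dbp and Fndc1 passed in that blocked fit, and the other 9 did not, with adjusted p from 0.133 to 0.432. The same rats without the block gave 1 call, and the block in the fit of all 31 rats gave 13, of which 11 were among the 16.

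**Figure D1:**
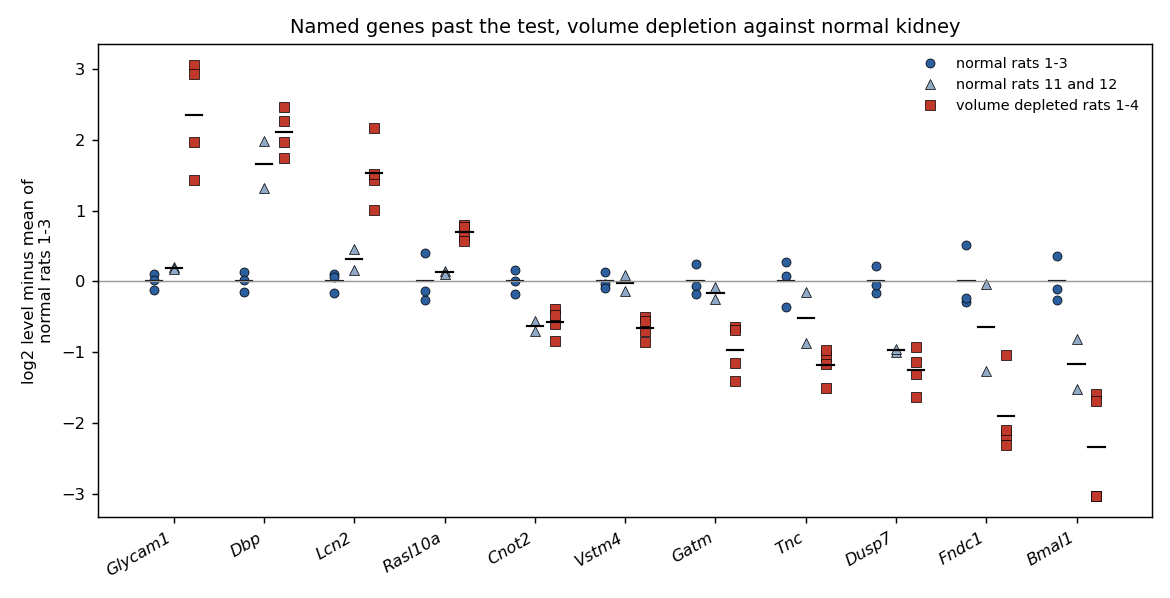
Log2 level of each called and named gene in each rat, less the mean of normal rats 1 to 3 (y axis), with genes ordered by their change (x axis). Points are rats (circles normal rats 1 to 3, triangles normal rats 11 and 12, squares volume depleted rats 1 to 4) and short bars are group means. Squares and circles do not overlap for any of the 11 genes, while squares and triangles overlap for 4 of them (Dbp, Cnot2, Dusp7 and Fndc1).

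The 2 clock genes among the calls moved in opposite directions. Dbp, which encodes a D-box binding transcription factor and clock output, rose 4.31-fold, and Bmal1, the partner of Clock and the clock's positive arm, fell 5.03-fold. The 250 bases before the start of 4 genes are shown here to set the clock's elements beside these values: the 2 called clock genes, Rasl10a as the only called gene with an E-box there, and Tef, a relative of Dbp. The sequences are from RefSeq on the GRCr8 assembly, all on the + strand, for Dbp chr1:105312006-105312255, for Bmal1 chr1:176766078-176766327, for Rasl10a chr14:84168891-84169140 and for Tef chr7:115206577-115206826. Capitals mark CACGTG and AGGTCA, or TGACCT where the latter lies on the other strand.
Dbp: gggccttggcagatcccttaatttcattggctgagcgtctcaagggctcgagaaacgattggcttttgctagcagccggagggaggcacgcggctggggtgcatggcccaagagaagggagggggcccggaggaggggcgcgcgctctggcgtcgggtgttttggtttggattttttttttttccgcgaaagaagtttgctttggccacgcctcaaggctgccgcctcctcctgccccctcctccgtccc
Bmal1: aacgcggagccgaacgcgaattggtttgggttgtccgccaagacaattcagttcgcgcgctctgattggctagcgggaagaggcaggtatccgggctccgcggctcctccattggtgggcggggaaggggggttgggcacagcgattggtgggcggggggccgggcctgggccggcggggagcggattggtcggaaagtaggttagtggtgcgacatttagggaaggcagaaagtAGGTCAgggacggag
Rasl10a: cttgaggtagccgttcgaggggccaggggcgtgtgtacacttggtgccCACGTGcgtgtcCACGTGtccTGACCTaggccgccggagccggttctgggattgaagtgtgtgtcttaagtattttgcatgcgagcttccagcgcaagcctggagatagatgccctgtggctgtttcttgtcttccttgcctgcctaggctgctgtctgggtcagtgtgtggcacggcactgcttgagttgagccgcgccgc
Tef: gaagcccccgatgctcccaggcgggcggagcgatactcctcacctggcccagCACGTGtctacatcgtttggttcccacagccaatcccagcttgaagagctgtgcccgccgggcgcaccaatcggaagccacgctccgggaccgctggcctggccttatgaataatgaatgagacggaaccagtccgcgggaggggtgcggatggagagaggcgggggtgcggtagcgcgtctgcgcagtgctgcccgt

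The Bmal1 window held an AGGTCA 15 bases before the start. Rasl10a held 2 E-boxes, at 202 and 190 bases, and an AGGTCA element at 181 bases, and Tef held an E-box at 198 bases. The Dbp window held none of the motifs searched. Of 33360 promoter windows of that length, 5.61% held CACGTG, 14.1% held AGGTCA on either strand, and 2.05% held the D-box TTANGTAA. Windows were found for 10 of the 11 called genes, of which 1 held an E-box and 3 an AGGTCA element, and for all 11 measured clock genes, of which 3 held an E-box, 3 an AGGTCA element and 1 a D-box. These are matches of letters in a window, with no measure of binding.

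Dbp lay at 4.15, 3.91, 4.45 and 4.63 in volume depleted rats 1 to 4 and at 2.31, 2.20 and 2.02 in normal rats 1 to 3. Every volume depleted rat was above every one of these normal rats, and the change was 2.11 ± 0.20 (SE; limma adjusted p = 9.83e-07; 95% interval 1.70 to 2.51). Normal rats 11 and 12, however, had Dbp at 3.50 and 4.16, within or near the range of the volume depleted rats. Against all 5 normal rats as 1 group the change was 1.45, with a limma adjusted p of 0.0189.

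Bmal1 lay at -0.15, -0.04, -1.48 and -1.48 in volume depleted rats 1 to 4 and at 1.90, 1.44 and 1.28 in normal rats 1 to 3. Rats 3 and 4 were the lowest, and the change was -2.33 ± 0.30 (SE; limma adjusted p = 2.52e-04). Normal rats 11 and 12 stood between the groups, at 0.74 and 0.03, and against all 5 normal rats the change was -1.87. In the blocked fit of rats 1 to 3 Dbp passed (adjusted p = 0.038) and Bmal1 did not (adjusted p = 0.133). The time of day at which kidneys were taken is not in the labels, so its part in these values was not tested.

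**Figure D2:**
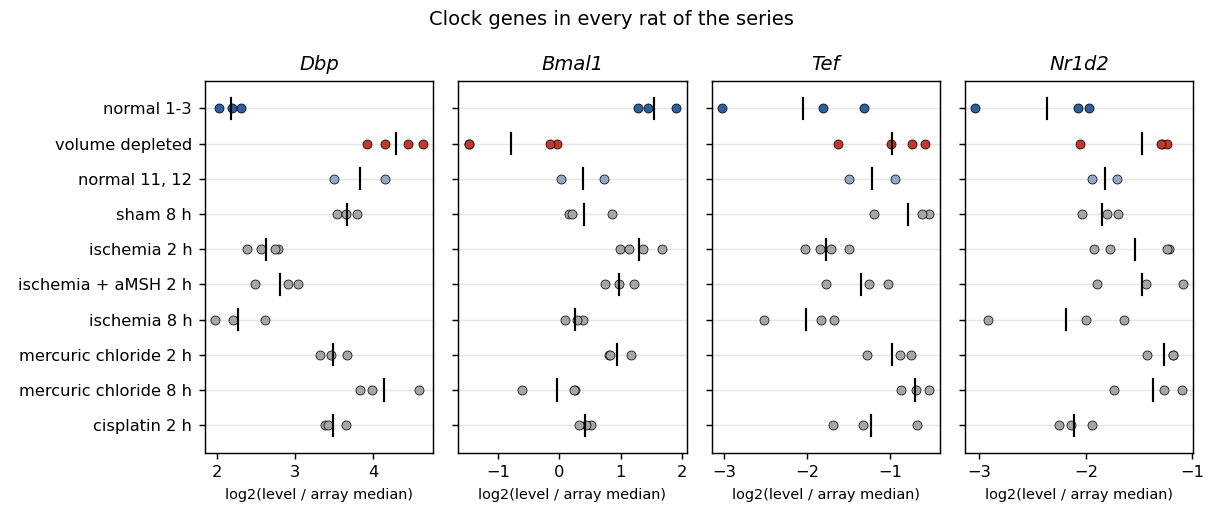
Log2 level over the array median (x axis, with its own scale for each gene) of Dbp, Bmal1, Tef and Nr1d2 in every rat of the series by group (y axis). Points are rats and bars group means. Volume depleted rats had the lowest Bmal1 of these groups' means, -0.79, and normal rats 1 to 3 the highest, 1.54, while untreated rats 11 and 12 lay nearer to the volume depleted rats in Dbp.

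Of the 11 clock genes measured, only Dbp and Bmal1 passed the test. A further 4 were higher at an unadjusted p under 0.05, where 2.25% of all probes were. Tef, a D-box binding factor, differed by 1.07 ± 0.32 (SE; limma adjusted p = 0.275). Its levels were -1.63, -0.98, -0.57 and -0.74 under volume depletion and -3.03, -1.81 and -1.31 in normal rats 1 to 3, the lowest being normal rat 1, so the groups overlapped. Nr1d2, a nuclear receptor that represses Bmal1, differed by 0.89 ± 0.28 (limma adjusted p = 0.333), and volume depleted rat 1 at -2.06 lay apart from rats 2 to 4 at -1.30 to -1.24. Bhlhe41, an E-box repressor, differed by 0.88 ± 0.20 (limma adjusted p = 0.0837). It was higher without overlap with normal rats 1 to 3, as were 2.51% of all probes. Normal rats 11 and 12 spanned -0.90 to -0.55 in Bhlhe41, overlapping the volume depleted range of -0.66 to 0.07. Usp2, a deubiquitinase under clock and aldosterone control, differed by 0.36 ± 0.14 (limma adjusted p = 0.566). Per1, of the negative arm, differed by -0.29 ± 0.21 and Per2 by 0.04 ± 0.21, and Clock itself by -0.13 ± 0.20, each with a limma adjusted p of 1. The list's median change was 0.04, beside -0.00 over all probes. Tef, Nr1d2 and Bhlhe41 were singled out after their values were seen.

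Of the tubular injury genes 1 passed the test and rose. Lcn2, which encodes the iron-carrier binding protein NGAL shed by injured tubules, lay at -0.20, 0.21, 0.95 and 0.30 in the volume depleted rats and at -1.12, -1.39 and -1.15 in normal rats 1 to 3. Rat 3 was the highest, and every volume depleted rat lay above every normal rat, rats 11 (-1.05) and 12 (-0.76) included. Lcn2 rose by 1.53 ± 0.22 (SE; limma adjusted p = 7.63e-04), or 2.89-fold, with a 95% interval of 2.12 to 3.94. In the blocked fit of rats 1 to 3 its change was 1.54 with an adjusted p of 0.19.

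The injury list was chosen with earlier results of these data known, and its genes were measured in the same rats. All 16 measured members had estimates above 0, with a median of 0.48, beside -0.00 over all probes. At an unadjusted p under 0.05 5 of them were higher, as were 2.25% of all probes, and 5 were higher without overlap, as were 2.51%. Havcr1, which encodes the injury receptor KIM-1 of the proximal tubule, lay at 0.16, 1.68, 2.04 and 0.71 under volume depletion and at -1.28, -0.17 and 0.46 in normal rats 1 to 3. Rat 1 lay within the normal range, and the difference was 1.48 ± 0.39 (SE; limma adjusted p = 0.188). It passed in the blocked fit of rats 1 to 3 (1.62, adjusted p = 0.0325), in that of all 31 rats with the block (adjusted p = 0.0072) and against all 5 normal rats (1.43, adjusted p = 0.0494). Without normal rat 1 and array 1 of volume depleted rat 1, it was 0.95, with an adjusted p of 0.781.

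Spp1, the matrix phosphoprotein osteopontin made by stressed tubules, lay at 4.80, 5.84, 5.62 and 5.30 against 3.57, 3.89 and 4.39. No rat overlapped, and the difference was 1.44 ± 0.40 (SE; limma adjusted p = 0.233). Areg, a ligand of the EGF receptor, differed by 1.35 ± 0.48 (limma adjusted p = 0.473), with rats 3 and 4 at 0.35 and -0.24 and rats 1 and 2 at -1.88 and -1.92. The last pair lay just below normal rat 3 at -1.82, so the groups overlapped. Il24 lay at the floor in all 3 normal rats and between -3.07 and -2.59 under volume depletion, and Clu, a secreted chaperone, differed by 0.59 ± 0.31 (limma adjusted p = 0.896). Havcr1, Spp1, Areg, Il24 and Clu were singled out after their values were seen.

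Set beside ischemic kidneys, the order of the injury genes depended on the gene and the time. Between volume depletion and ischemia at 2 h 20.1% of 9466 probes passed the test (10.6% higher and 9.45% lower under volume depletion), and 44.2% (21.8% and 22.3%) between volume depletion and ischemia at 8 h. Lcn2 differed by 0.01 from ischemia at 2 h (limma adjusted p = 1; mean of 0.31 in both groups) and by -3.19 from ischemia at 8 h (adjusted p = 2.94e-11). Havcr1 differed by 1.17 from ischemia at 2 h (adjusted p = 0.0212), volume depletion being higher, and by -3.46 from 8 h (adjusted p = 8.42e-08). Spp1 differed by 0.86 from 2 h (adjusted p = 0.106) and by -0.04 from 8 h (adjusted p = 0.956), but the 8 h rats were uneven, with Spp1 at 6.11, 6.41 and 3.75 in rats 1 to 3. Without ischemia 8 h rat 3, whose array stood apart, Spp1 differed by -0.87 (adjusted p = 0.0129), Lcn2 by -3.23 and Havcr1 by -3.23. The ischemia groups were studied at 2 and 8 h and volume depletion at 24 h.

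**Figure D3:**
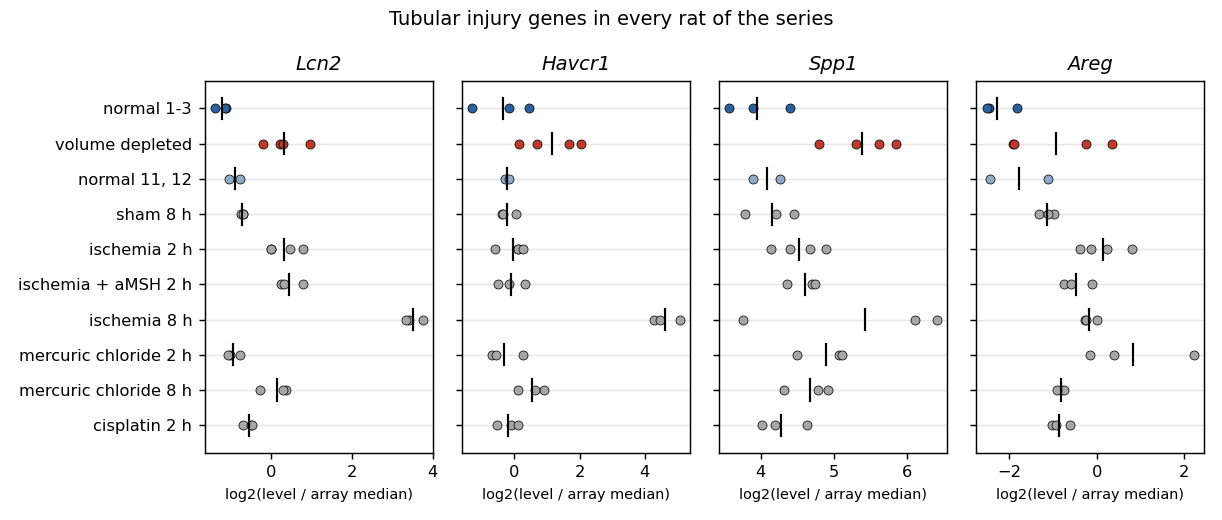
Log2 level over the array median (x axis, with its own scale for each gene) of Lcn2, Havcr1, Spp1 and Areg in every rat by group (y axis). Points are rats and bars group means. The volume depleted rats had Lcn2 between -0.20 and 0.95, near the ischemia 2 h rats and below the ischemia 8 h rats at 3.33 to 3.75, and Havcr1 between 0.16 and 2.04.

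Among the other genes that rose, Glycam1, which encodes a mucin-like ligand of L-selectin made by specialised venules, lay at -1.05, -0.51, 0.57 and 0.45 against -2.61, -2.45 and -2.38. All 4 volume depleted rats stood well above the 3 normal rats, and the change was 2.34 ± 0.49 (SE; limma adjusted p = 0.0472), or 5.08-fold. It was called with 1 of the 7 rats left out in turn and not in the other 6, and was not called without normal rat 1 and array 1 of volume depleted rat 1 (2.25, adjusted p = 0.179). In ischemia Glycam1 lay at -0.51, 0.31 and 2.88 in the 3 rats measured at 2 h, a wide spread with 1 high rat, and at 0.56, 1.45 and 0.99 at 8 h, and its mean after sham surgery was -2.19. Rasl10a, a small GTPase of the Ras family, rose by 0.70 ± 0.14 (limma adjusted p = 0.0313), from -1.91, -2.44 and -2.57 in normal rats 1 to 3 to between -1.74 and -1.51. Its call was lost in 4 of the 7 fits that left out a rat.

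Of the genes that fell, 1 was a tubule marker and several were matrix or signalling genes. Gatm, the proximal tubule enzyme of the first step of creatine synthesis, lay at 5.42, 4.90, 4.66 and 5.38 in the volume depleted rats and at 6.30, 5.88 and 6.00 in normal rats 1 to 3. The groups did not overlap, nor did normal rats 11 (5.82) and 12 (5.98) overlap with the volume depleted rats. Gatm fell by 0.97 ± 0.17 (SE; limma adjusted p = 0.00863), a 1.96-fold reduction. Without normal rat 1 its change was -0.85, with an adjusted p of 0.0805. A second Gatm probe lay near the floor and did not pass, at -0.17 ± 0.17. The other 20 measured proximal tubule markers did not pass the test, and their list, Gatm included, had a median of -0.05.

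Tnc, the matrix protein tenascin C, lay at 0.79, 1.24, 1.13 and 1.32 against 2.56, 2.37 and 1.94 in normal rats 1 to 3. It fell by 1.17 ± 0.18 (SE; limma adjusted p = 0.00226), or 2.25-fold, and volume depletion differed by -2.25 from ischemia at 2 h (adjusted p = 3.1e-10). Fndc1, a fibronectin domain protein, lay at -2.68, -2.54, -1.41 and -2.48 against -0.66, -0.60 and 0.14, and fell by 1.90 ± 0.38 (limma adjusted p = 0.0313). Rat 3 lay apart from the other 3 volume depleted rats, normal rats 11 and 12 at -1.64 and -0.41 overlapped with them, and the call was lost in 6 of the 7 fits that left out a rat. Fndc1 also passed in the blocked fit of rats 1 to 3 (-1.83, adjusted p = 0.0325). Vstm4, an immunoglobulin domain membrane protein, fell by 0.65 ± 0.14 (limma adjusted p = 0.0472), and was called in 0 of the 7 fits that left out a rat. Without normal rat 1 and array 1 of volume depleted rat 1, Fndc1 (-2.05, adjusted p = 0.0697) and Vstm4 (-0.67, adjusted p = 0.108) were not called.

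Dusp7, a phosphatase that inactivates MAP kinases, lay at 3.80, 3.64, 3.31 and 4.02 against 4.77, 4.88 and 5.16 in normal rats 1 to 3. It fell by 1.25 ± 0.20 (SE; limma adjusted p = 0.00287), or 2.37-fold. Normal rats 11 and 12 lay at 3.94 and 3.99, within the volume depleted range, and against all 5 normal rats the change was -0.86 with an adjusted p of 0.0899. Cnot2, a subunit of the CCR4-NOT complex that shortens messenger RNA tails, fell by 0.58 ± 0.11 (limma adjusted p = 0.016). Cnot2 had its highest group mean in normal rats 1 to 3, at 3.03. Every other group of the series had a mean between 2.08 and 2.54, with 2.45 under volume depletion. It too lay within the volume depleted range in normal rats 11 and 12, at 2.47 and 2.33, and did not pass against all 5 normal rats (-0.33, adjusted p = 0.324), nor without normal rat 1 and array 1 of volume depleted rat 1 (-0.58, adjusted p = 0.0697).

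**Figure D4:**
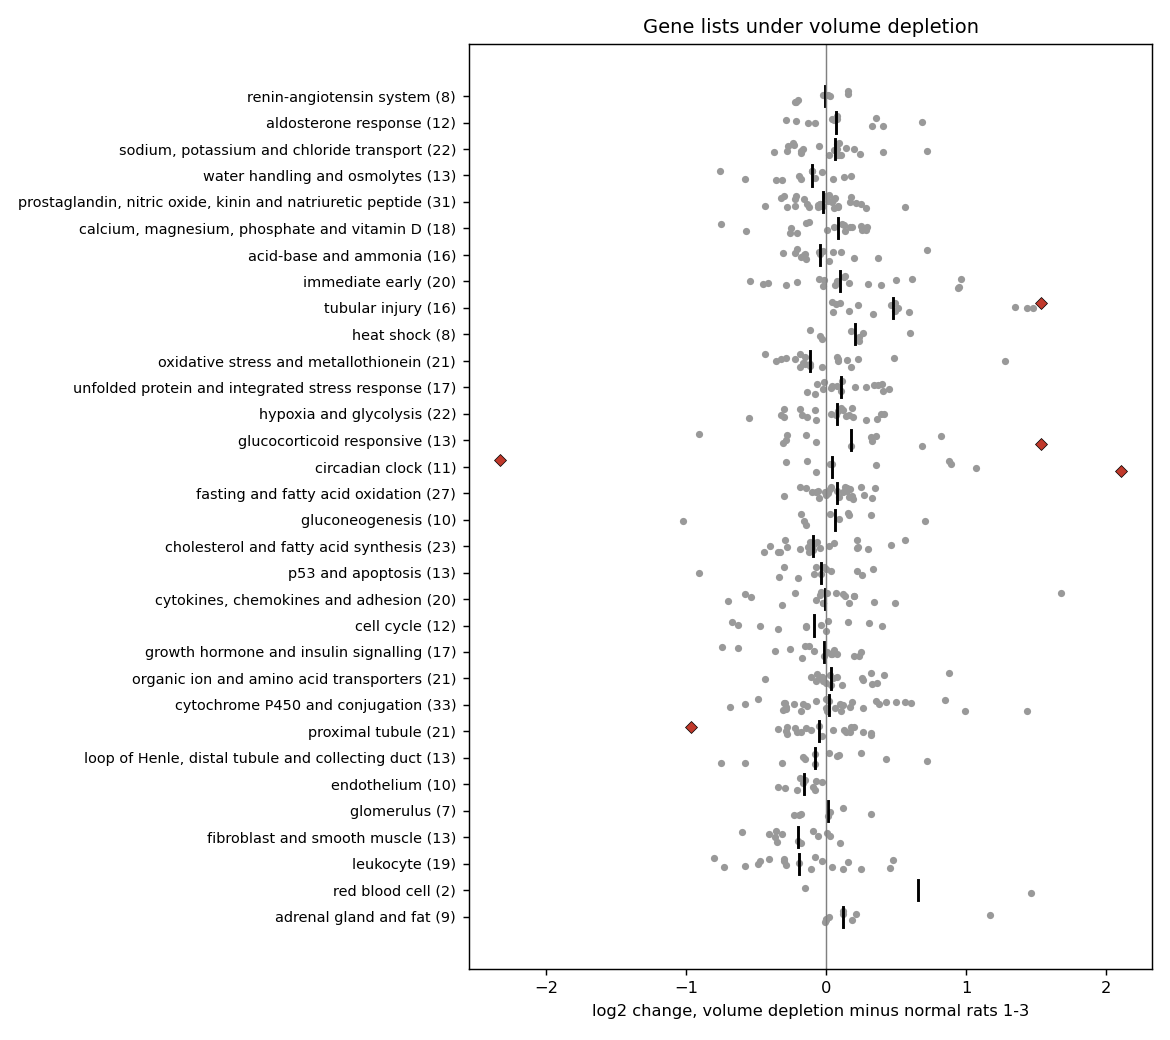
Log2 change under volume depletion (x axis) of the measured members of each gene list (y axis, with the number of members tested). Points are genes, diamonds those past the test, and black bars list medians. All 16 tubular injury genes lie above 0, with a median of 0.48, and all 10 endothelium genes lie below 0, with a median of -0.16. The lists were chosen with earlier results of these data known.

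The hormone systems that answer volume loss showed no called gene. None of the 8 measured genes of the renin-angiotensin list passed, and their differences ran from -0.22 to 0.16. Agt, the renin substrate angiotensinogen, differed by 0.16 ± 0.30 (SE; 95% interval -0.47 to 0.78). Ace, the converting enzyme that makes angiotensin II, differed by 0.01 ± 0.13 (95% interval -0.26 to 0.29). The peptidases Enpep (0.16), Anpep (-0.22), Mme (-0.22) and Lnpep (-0.02), the angiotensin-(1-7) receptor Mas1 (-0.20) and the prorenin receptor Atp6ap2 (0.03) were the rest. Mme, neprilysin, was lower without overlap, as 3.44% of all probes were, at 2.07, 2.08, 1.89 and 2.07 against 2.20, 2.26 and 2.27.

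None of the 12 measured aldosterone response genes passed. Fkbp5, a cochaperone induced by steroid receptors, had the largest difference, 0.68 ± 0.40 (SE; limma adjusted p = 0.987), with 0.36, 0.05, 0.72 and 0.80 against -0.16, -0.18 and -0.24 and no overlap. Tsc22d3, the steroid-induced leucine zipper GILZ, differed by 0.33 ± 0.20 (limma adjusted p = 0.997). Scnn1g, the gamma subunit of the epithelial sodium channel, differed by 0.08 ± 0.21, the receptor Nr3c2 by -0.22 ± 0.17 and Hsd11b2, the enzyme that shields that receptor from glucocorticoid, by -0.08 ± 0.18.

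Nor did any of the 22 genes of sodium, potassium and chloride transport pass. Slc12a1, the furosemide target, lay at 5.24, 4.95, 4.98 and 4.86 against 5.47, 5.01 and 5.04 and differed by -0.16 ± 0.21 (SE; limma adjusted p = 1; 95% interval -0.60 to 0.27). Slc12a3, the thiazide-sensitive cotransporter further downstream, differed by 0.09 ± 0.37, and Slc9a3, the proximal sodium and proton exchanger, by -0.05 ± 0.31. Slc26a4, the chloride and bicarbonate exchanger pendrin of intercalated cells, lay at 1.68, 1.30, 1.30 and 0.99 against 0.87, 0.79 and 0.14. It was higher in every volume depleted rat than in every normal rat 1 to 3, and the difference was 0.72 ± 0.22 (limma adjusted p = 0.295). Fxyd2, a regulator of the sodium pump, differed by -0.37 ± 0.23 (limma adjusted p = 0.99).

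Water and osmolyte genes gave no call either, with 10 of 13 estimates below 0 and a median of -0.10. Slc6a12, the betaine carrier that supplies osmolyte to medullary cells, lay at -0.40, -0.71, -1.09 and -0.98 against 0.05, -0.09 and -0.06. These groups did not overlap, and the difference was -0.76 ± 0.22 (SE; limma adjusted p = 0.271). Against all 5 normal rats it was -0.94 (adjusted p = 0.0338). Aqp4, a basolateral water channel of the collecting duct, lay at 0.90, 1.14, 0.82 and 1.17 against 1.63, 1.67 and 1.46 and differed by -0.58 ± 0.20 (limma adjusted p = 0.45). Aqp2, the vasopressin-regulated channel, differed by -0.32 ± 0.24 (limma adjusted p = 1), and Aqp1 by 0.13 ± 0.14. Calb1, the distal tubule calcium buffer calbindin, was measured in 2 of the 3 normal rats, at 2.95 and 3.93, and at 2.42 to 3.04 under volume depletion, with a difference of -0.75 ± 0.23 (limma adjusted p = 0.371).

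**Figure D5:**
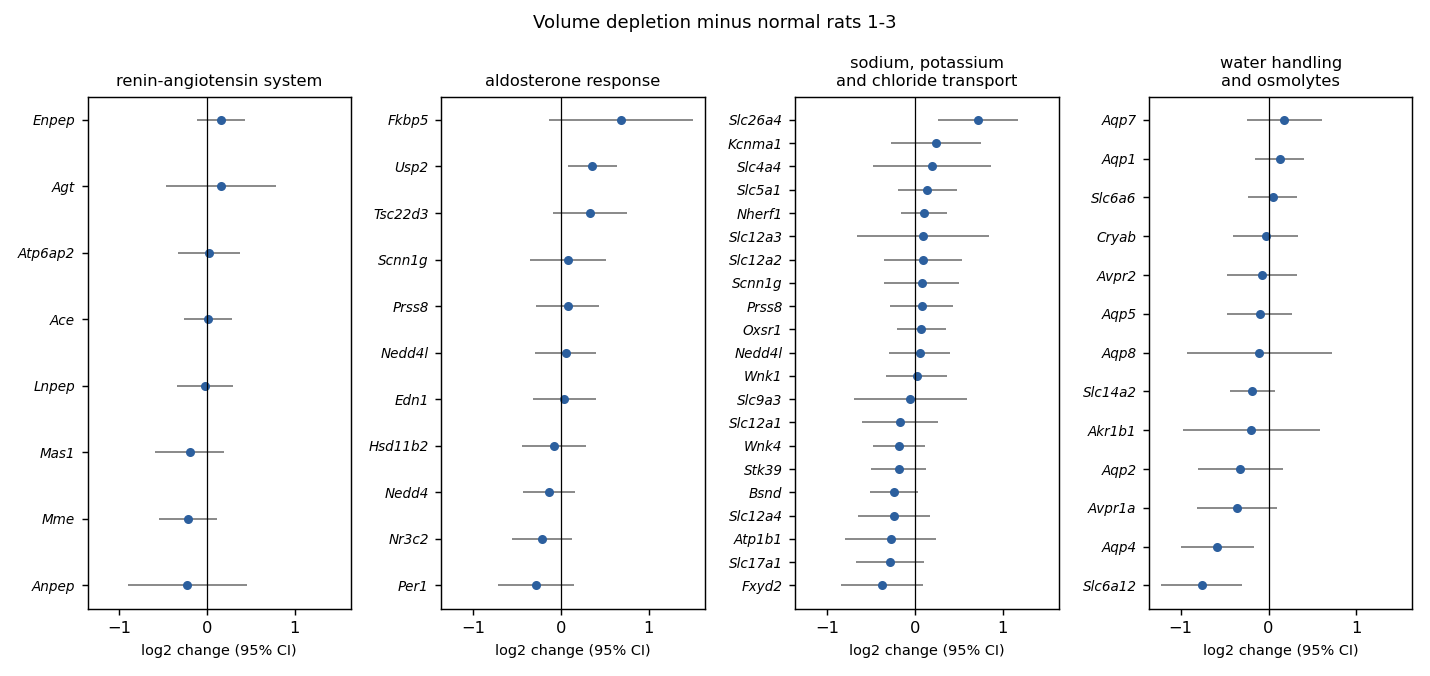
Log2 change under volume depletion (x axis) of measured genes (y axis) of the renin-angiotensin, aldosterone response, ion transport and water lists. Points are estimates and lines 95% intervals of the limma fit. Most intervals span 0, those of Slc26a4 and Usp2 lie above it and those of Slc6a12 and Aqp4 below it, and none of these genes passed the test over all probes.

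Markers of other cell types gave no call. Leukocyte markers had 7 of 19 members lower and 1 higher at an unadjusted p under 0.05, where 3.72% and 2.25% of all probes were, and a median of -0.20. Their summed linear level was 70.6 to 91.3 in the volume depleted rats and 90.6 to 103 in normal rats 1 to 3. Cd5, a T cell receptor partner, had the largest difference in that list, -0.80 ± 0.25 (SE; limma adjusted p = 0.344). Fibroblast and smooth muscle markers had 4 of 13 members lower at an unadjusted p under 0.05, summing to 31.5 to 41.7 against 40.3 to 48.0. Of these, Tagln, an actin-binding smooth muscle protein, differed by -0.60 ± 0.16 (limma adjusted p = 0.20). Normal rats 11 and 12, however, had Tagln between 2.03 and 2.04, within the volume depleted range of 1.65 to 2.35. All 10 endothelium markers had estimates below 0, with sums of 25.8 to 28.6 against 29.4 to 32.2. The ranges of these sums lay lower under volume depletion, where Tnc, Fndc1 and Vstm4 also fell. Whether the sums and these genes moved together from rat to rat, and the part of the sums in the falls, was not tested.

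The adrenal gland and fat markers summed to 6.48 to 14.1 under volume depletion and to 5.47 to 7.71 in normal rats 1 to 3, led by Ucp1, the uncoupling protein of brown fat, which differed by 1.17 ± 0.90 (SE; limma adjusted p = 1). In that list 6 of 9 markers lay above the floor in all 7 rats, and Plin1 was at the floor in all 7. The 2 measured red blood cell markers had estimates of opposite sign, and neither passed. Alas2, the first enzyme of haem synthesis in red cells, differed by 1.46 ± 0.44 (limma adjusted p = 0.275), at -0.56 to 0.15 against -2.44 to -0.79. Slc4a1, the other marker, differed by -0.15.

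Sham surgery was the study's other control, and its change from normal rats 11 and 12 was set against the change under volume depletion. Of 9385 probes 11 differed (0.117%), 1 higher under volume depletion (0.0107%) and 10 lower (0.107%). Dbp was the higher one, with 2.11 under volume depletion against -0.17 after sham surgery, and Bmal1 was among the lower, with -2.33 against 0.02. Each treatment was measured against the normal rats chosen for it, which differed in both genes as given above. Taking normal rats 11 and 12 as the reference of the sham rats was a choice of this comparison. The level of Dbp was 4.29 in volume depleted and 3.66 in sham rats. Tnc also differed, by -1.52 ± 0.28 (SE; limma adjusted p = 0.0206), with -1.17 against 0.35. The rest were mostly genes higher in sham rats than in normal rats 11 and 12. Cdkn1a, a cell cycle inhibitor, differed by 1.79 after sham surgery and by -0.91 under volume depletion, and Per1 by 1.62 and -0.29. These normal rats also differed: mean Per1 was -0.69 in rats 11 and 12, 0.64 in rats 1 to 3 and 0.92 after sham surgery. For Cdkn1a the means were -0.31, 0.90 and 1.48, while Klf10 was not lower in rats 11 and 12 (-1.33, against -1.51 in rats 1 to 3). Sham surgery against normal was not tested alone.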

How the data were processed

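Per the labels' protocols, kidney RNA was labelled with biotin and hybridised to CodeLink arrays, and for 5 rats a second array was run. How the arrays were scanned, background-corrected and scaled is not given in the sources used here. Values as deposited had an unusual unit, classed as other: each was read, from the values, as 2 to the power of an intensity over about the array median, since the log2 of 100% of the 336863 values tested was a whole multiple of 0.0001 within 1e-06, where chance gives 2%. A deposited 0.5 marked a missing value (0.969% of values). The values of sham rat 3 lay 2 lines off the probe names and were moved, which raised its correlation with the other arrays from 0.0652 to 0.9843.

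Intensities were divided by the array median, floored at 0.1 and brought to log2, and the 2 arrays of a rat were averaged. limma 3.58.1 (R 4.3.3) was fitted to 31 rats in 10 groups (21 residual degrees of freedom), with Benjamini-Hochberg adjustment over the probes of each comparison. Testing a probe required values in 2 or more rats of both groups and in 2 of 3 of all rats, with 3 or more rats above the floor. Of 9911 probes 7229 had 1 gene symbol, 21 several and 2661 none, per the array annotation and the gene table of assembly GRCr8. A gene was represented by its brightest probe. Named genes were called ones with all 4 volume depleted rats on 1 side of the normal mean (up to 15 in each direction), up to 6 called genes of each list or else the 2 largest differences, and measured renin-angiotensin, aldosterone and cell type marker genes. Some genes are not reported here. Genes outside this rule were chosen after their values were seen. The members, lists and tests were chosen with earlier results of these data known, and several genes are in more than 1 list.

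The replicate numbers 1 to 3 were treated as a possible pairing of the rats in the blocked fits only. The main fit had no block, so its calls, SEs and p values leave a pairing out. Deviations from the group means of same-numbered rats correlated at 0.54, 0.37 and 0.14 for numbers 1, 2 and 3 over 9380 probes. Each number correlated best with itself in 3 of 3. The highest value was for number 1, which holds both arrays that stood apart. The labels name no shared litter or day. The fit was tested on simulated data for volume depletion against normal over 9466 probes, of which 200 were changed. It recovered 49.3% of 1.5-fold, 82.1% of 2-fold and 95.5% of 4-fold changes, with 8 false calls among 159. The real comparison gave 16 calls. The Benjamini-Hochberg cutoff is stricter with fewer calls, so these percentages do not give the recovery in the real data. The number of arrays limits the precision. The labels number the rats, and nothing says more of how they were kept.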

Additional observations from a re-analysis of the deposited data

Results flagged for a closer look

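Among the measures tested for a rat apart from the other 3 volume depleted rats, 8 of 77 genes had one, where chance gives about 5%. The genes were measured in the same 4 rats and are not independent, so this count does not show an excess over that rate. Rat 4 was highest in the cell cycle genes Ccna2 (-0.47, others -1.43 to -1.29) and Hmmr (-0.16, others -0.89 to -0.81). Rat 1 was highest in the collagen Col5a1 (-0.53, others -0.80 to -0.76) and lowest in the clock gene Nr1d2 (-2.06, others -1.30 to -1.24). Rat 2 was lowest in Per1 (0.11, others 0.41 to 0.46) and in the glucose carrier Slc2a2 (1.57, others 2.05 to 2.12). Rat 3 was highest in Fndc1 (-1.41, others -2.68 to -2.48) and lowest in Mme (1.89, others 2.07 to 2.08).

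In limma's test of the change under volume depletion less the change under sham surgery, each against the normal rats chosen for it, 11 genes passed. Dbp was higher, by 2.28. The lower ones were Cdkn1a (-2.69), Slc25a25 (-2.38), Tsku (-2.36), Bmal1 (-2.36), Per1 (-1.90), Akap12 (-1.84), Tnc (-1.52), Tagln (-1.41), Ipmk (-1.29) and Klf10 (-1.21). Normal rats 11 and 12 enter only the sham change and normal rats 1 to 3 only the volume depletion change, so a difference between these normal rats and a difference between the treatments cannot be told apart here.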

How the results depend on the processing

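The count of 16 called probes for volume depletion against normal was 41 with all 5 normal rats as 1 group, 2 with sham rat 3 in the deposited line order and 1 in a fit of the 2 groups alone. The replicate block gave 6 among rats 1 to 3, against 1 for the same rats with no block, and 13 in the fit of all 31 rats. Without normal rat 1 and array 1 of volume depleted rat 1 it was 9. Leaving out each rat in turn gave 7 to 20: 7 without normal rat 1, 8 without normal rat 2 or volume depleted rat 3, and 10 without normal rat 3. Called genes in the lists, 4 in all, were 8 with all 5 normal rats, 1 in the fit of the 2 groups alone, 1 with sham rat 3 as deposited and 1 for rats 1 to 3 with no block. The sham comparison went from 11 to 23 calls under quantile normalization. The other alternatives (quantile normalization, floors of 0.05 and 0.2, the filters on dim probes, the choice of arrays of a rat, sham rat 3 left out, and a trended robust prior) kept the count within 1.5 times of 16. The causes were not tested. Over single genes and their settings, 1768 values kept their side of the threshold, 86 lost it and 34 gained it. No gene called in the main fit or in the alternative changed sign between them, and sign changes of uncalled genes were not counted. The settings include the exact permutation test, whose unadjusted p was set against 0.05. A fit with the array lot as a term was not run, since the labels do not give the lot of an array. Without ischemia 8 h rat 3, the count for volume depletion against ischemia 8 h was 4373 in place of 4180. That fit, the fit of 31 rats with the block, the fit of rats 1 to 3 with no block and the one without the arrays that stand apart were chosen after seeing the data. The exact permutation test over 7 rats has 35 splits and no p below 0.0286. Values at the floor have no order.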

Other observations

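Some lists not described above held larger differences that did not pass. Of the chemokines, Ccl20, which draws lymphocytes, differed by 1.67 ± 0.42 (SE; limma adjusted p = 0.14) and by 1.54 ± 0.43 on a second probe, and passed in the blocked fit of rats 1 to 3 (1.83, adjusted p = 0.0325). Cxcl9, an interferon-induced chemokine, differed by -1.20 ± 0.29 (limma adjusted p = 0.11), at -0.54 to -0.16 against 0.24 to 1.44. Both were without overlap with normal rats 1 to 3, as were 2.51% of all probes on the higher side and 3.44% on the lower. Normal rats 11 and 12 spanned -0.34 to 0.14 in Cxcl9, overlapping the volume depleted range. Slc16a1, the lactate carrier MCT1, differed by -1.03 ± 0.24 and -1.14 ± 0.31 on its 2 probes (limma adjusted p = 0.106 and 0.202). On the first probe normal rats 11 and 12 spanned 1.49 to 1.70, within the volume depleted range of 0.95 to 1.73. On the second they spanned 0.93 to 0.98, between volume depletion (0.48 to 0.87) and normal rats 1 to 3 (1.61 to 1.99). Among detoxifying genes, Gpx2 differed by 1.28 ± 0.55 and Ugt2b7 by 1.43 ± 0.59 (limma adjusted p = 0.714 and 0.698).

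Of the 17 genes of the unfolded protein response, 4 were higher at an unadjusted p under 0.05 (2.25% of all probes): Manf (0.45 ± 0.21), Herpud1 (0.40 ± 0.16), Hspa5 (0.37 ± 0.17) and Pdia4 (0.35 ± 0.16), of which none passed limma's adjusted test. In each the groups overlapped. Spon1, a secreted matrix protein, was just outside the test's threshold at -0.53 ± 0.11 (limma adjusted p = 0.0526), with 1.27 to 1.37 against 1.80 to 1.93, and passed against all 5 normal rats (-0.49, adjusted p = 0.0186).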
